A study of Mus musculus with 4 samples.

Results

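The genes described here belong to signalling from Toll-like receptors to the transcription factor NF-kB, or act beside it. Some carry the signal, while others inhibit it or belong to the TBK1 branch or the CARD-BCL10-MALT1 group. They are 43 protein-coding genes, listed by name, of 21779 protein-coding genes placed on the genome. A gene counted as having a peak when the summit of a deposited peak lay in the gene or within 10 kb of it on the mouse build mm10. By this rule 4 of the 43 genes (9.30%) had a peak, beside 2.33% of all protein-coding genes. Each of the 4 had 1 of the 722 peaks of the series. Malt1 and Nfkb1 were known to have peaks when the genes were listed, so nothing is read from the difference in share.

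The study looked for genes that GAPDH may regulate from inside the nucleus in stressed cells. GAPDH is best known as an enzyme of glycolysis in the cytoplasm. C57BL/6 mice received lipopolysaccharide (LPS), a bacterial cell wall product, by intraperitoneal injection on 4 consecutive days, and microglia, which are the macrophages of brain tissue, were pulled from a cortical cell suspension by beads against the myeloid surface protein CD11b. Chromatin immunoprecipitation with an antibody labelled AceGAPDH gave 2 libraries, and input chromatin, for which the labels name no antibody, gave 2 libraries of the same kind of mice. All 4 libraries are from LPS-treated mice, no untreated group was analysed here, and neither the dose, the age of the mice nor whether a library stands for 1 animal is given in the labels. CD11b is also carried by other myeloid cells, and the files analysed here hold no expression values from which the identity of the cells could be checked.

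The deposited result was 1 peak list with no value per library. Every value below is therefore a description of that list, without a replicate check and without a test between groups. The score of a peak is the authors' own; its scale is not stated in the list, and it serves here only to rank peaks. Height is the authors' pileup signal at the summit, and its 95% Poisson interval covers counting error only and assumes that a height counts independent fragments. Library depth is unknown. Over the list, scores ran from 50.03 to 1479.61 with a median of 56.57, and heights from 5 to 108 with a median of 8.

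LPS is bound by LPS-binding protein and CD14 and handed to TLR4 with its partner MD-2, while TLR2 senses bacterial lipoproteins. Adaptors of the MyD88 and TRIF families then recruit IRAK kinases and TRAF ubiquitin ligases, which activate the TAK1 kinase and the IKK complex. IKK marks the IkB proteins for destruction, which frees NF-kB to enter the nucleus, and several genes induced by NF-kB encode its own subunits and inhibitors, so that the pathway feeds back on itself. In microglia it is a main route by which LPS induces inflammatory genes.

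The DNA under the peaks themselves is not printed here. The sequences below are the 250 bases before the annotated start site nearest to the summit, for 3 of the genes with a peak, shown as the start regions closest to the peaks. Elsewhere in the text, distances run from the summit to the nearer end of the gene and are 0 inside it. They come from RefSeq on GRCm38.p6, the assembly that mm10 represents. Capitals mark matches to the NF-kB consensus, searched on both strands. For Nfkb1 the nearest start site is that of Gm46827, a long non-coding RNA gene inside Nfkb1 (chr3:135608174-135608423, plus strand). The Tank sequence is chr2:61592902-61593151 (plus strand) and the Socs3 sequence chr11:117969367-117969616 (minus strand).
Gm46827 in Nfkb1: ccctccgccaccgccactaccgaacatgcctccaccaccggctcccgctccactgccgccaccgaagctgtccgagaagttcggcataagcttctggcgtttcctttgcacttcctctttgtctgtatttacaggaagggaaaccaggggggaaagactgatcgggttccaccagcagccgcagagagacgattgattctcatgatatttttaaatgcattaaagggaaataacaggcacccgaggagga
Tank: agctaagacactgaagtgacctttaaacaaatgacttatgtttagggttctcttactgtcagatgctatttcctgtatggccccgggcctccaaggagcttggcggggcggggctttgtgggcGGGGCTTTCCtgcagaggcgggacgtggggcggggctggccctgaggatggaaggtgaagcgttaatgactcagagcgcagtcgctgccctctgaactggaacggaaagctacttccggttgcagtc
Socs3: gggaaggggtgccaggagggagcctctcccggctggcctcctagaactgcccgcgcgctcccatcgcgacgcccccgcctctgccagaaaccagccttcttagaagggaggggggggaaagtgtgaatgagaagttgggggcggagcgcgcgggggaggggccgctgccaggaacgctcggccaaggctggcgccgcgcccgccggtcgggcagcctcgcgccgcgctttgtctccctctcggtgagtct
The summits lay 3476 bp (Nfkb1, from the start of Gm46827), 46619 bp (Tank) and 12638 bp (Socs3) from these start sites. None of the 3 peaks reached the start region printed for it.

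Nfkb1, which encodes a precursor of an NF-kB DNA-binding subunit, was the only one of the 5 subunit genes with a peak. The gene (RefSeq gene 18033) spans chromosome 3 from 135584655 to 135691969 and is 107315 bp long, the longest of the 43. Its peak ran from 135611819 to 135612002, with the summit at 135611900, which is 27245 bp from the lower end, or 25.4% of the gene. The score was 56.95, rank 349 of 722, and the height was 7 (95% Poisson interval 2.81 to 14.4). This is an ordinary peak of the list: of the 187 peaks of height 7, 67 scored higher and 118 lower. The summit lay at the same time inside Gm46827 (135608424 to 135613657), and the next peak on the chromosome was 2.08 Mb away. Whether the summit falls in an exon or an intron was not determined here, because the gene table used gives no exons.

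Tank encodes a TRAF-binding scaffold of the kinases TBK1 and IKK-epsilon, and held the other summit inside a gene. It lies on chromosome 2 from 61578557 to 61654171 (RefSeq gene 21353, plus strand, 75615 bp). The peak ran from 61639700 to 61639897 with its summit at 61639771, so 81.0% of the gene lay before the summit and 14400 bp remained to its end. Its score of 50.54 was close to the lowest of the list, with 95.7% of all peaks scoring higher, and 13 peaks shared that value. The height was 8 (95% Poisson interval 3.45 to 15.8), and of the 172 peaks of that height 165 had a higher score. No other annotated gene lay nearer than Psmd14 at 71.9 kb.

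Malt1, the paracaspase that joins CARD proteins and BCL10 in activating NF-kB, had the peak with the highest score among these genes. The gene (RefSeq gene 240354) spans chromosome 18 from 65430939 to 65478888, and the peak ran from 65427466 to 65427546, with the summit 3434 bp outside the end at the lower coordinate. The score was 157.55, rank 24 of 722, and the height was 14 (95% Poisson interval 7.65 to 23.5). Of the 4 peaks of height 14 it had the highest score, against a median of 90.05 among them. No annotated gene lay nearer than Malt1; the next was the pseudogene Gm46618 at 8.14 kb.

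The Malt1 peak was also short. At 81 bp it was among the shortest of the list: only 4 of the 722 peaks were shorter, 1 other had the same length, and the median was 161.5 bp. The list held 11 peaks under 100 bp, and 9 of them (81.8%) scored at least 100, as did 6.65% of all peaks. Their heights ran from 10 to 28. Of these 11 short peaks, 2 lay in Rn7s1 and Rn7s2, genes of the 7SL RNA with near-identical copies, and the others outside genes or in Npffr2, Fam227b and Zbtb7c. The labels do not say how reads that match several places were placed, and their part in the Malt1 value was not tested.

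Socs3 encodes a suppressor of cytokine signalling that is induced by LPS and by cytokines acting through STAT3. The gene (RefSeq gene 12702, minus strand, 4258 bp) lies on chromosome 11 from 117966079 to 117970336. Its peak ran from 117956669 to 117956824, with the summit 9351 bp beyond the end at the lower coordinate, which on the minus strand is downstream of the gene. The score was 64.11, a value shared by 16 peaks, at rank 165 of 722, and the height was 9 (95% Poisson interval 4.12 to 17.1). Socs3 was the nearest annotated gene, followed by Pgs1 at 29.6 kb. This summit was the member just inside the 10 kb limit. The first member outside it, Tirap, was 50.6 kb from its nearest summit, and no member lay between 10 and 50 kb.

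**Figure D1:**
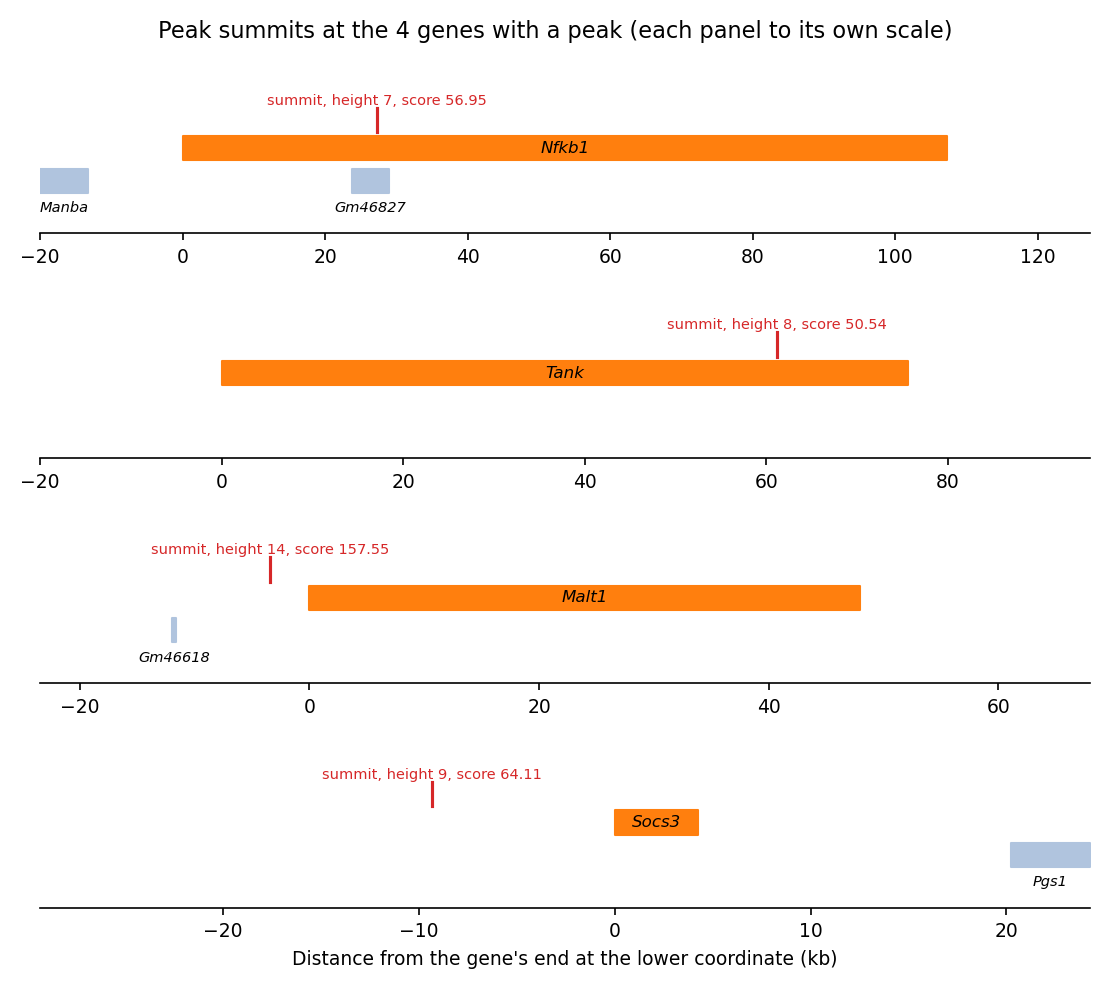
Position of the peak summit (red line) at the 4 genes with a peak, with the gene in orange and its closest annotated neighbours in blue; the horizontal axis is the distance in kb from the end of the gene at the lower coordinate, and each panel has its own scale. The summits lie inside Nfkb1 and Tank and 3434 and 9351 bp outside Malt1 and Socs3.

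Set side by side, 1 of the 4 peaks stood apart in score and length. Scores were 50.54 at Tank, 56.95 at Nfkb1, 64.11 at Socs3 and 157.55 at Malt1, and 3 of the 4 were at or above the median of the list. The heights of 8, 7, 9 and 14 have Poisson intervals that overlap one another, so their order is not resolved by counting error. Peak lengths were 198 bp at Tank, 184 bp at Nfkb1, 156 bp at Socs3 and 81 bp at Malt1. The next summit on the chromosome was 0.287 Mb away at Socs3, 0.814 Mb at Malt1, 1.24 Mb at Tank and 2.08 Mb at Nfkb1. The usual spacing of peaks over the whole list was not computed, so these distances are not called large or small. Each of the 4 genes was the coding gene nearest to its summit.

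**Figure D2:**
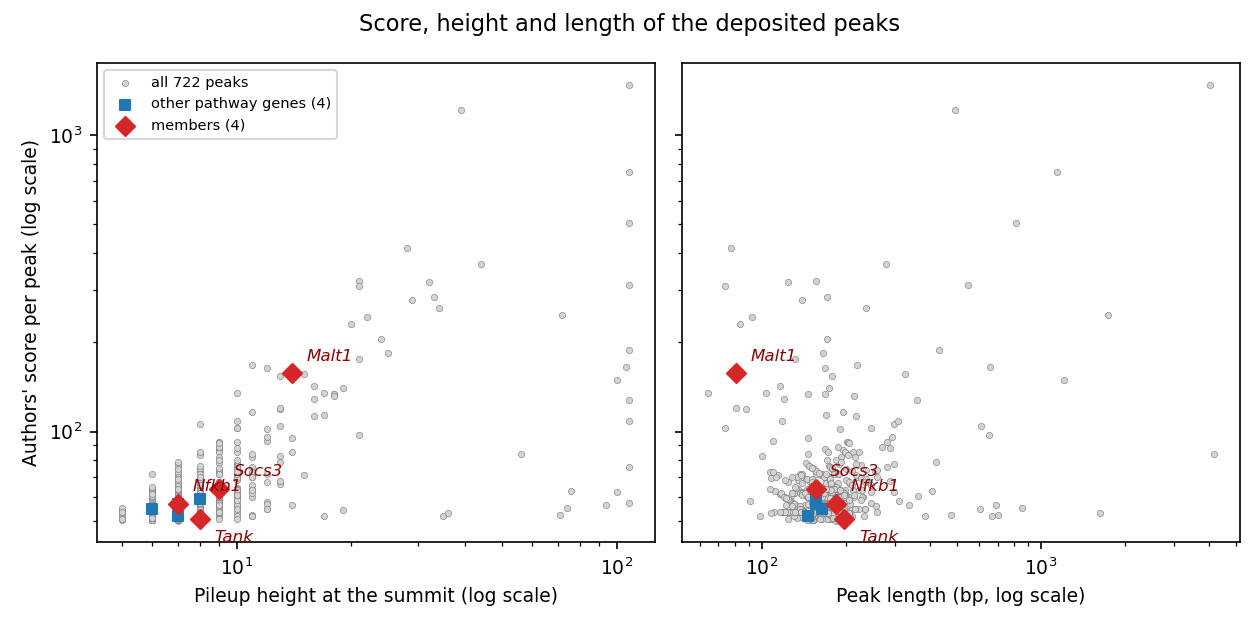
Score against height (left) and against peak length in bp (right) for all 722 deposited peaks in grey, on log scales, with the 4 member peaks in red and the 4 peaks of other pathway genes in blue. Malt1 stands at score 157.55 among the shortest peaks, while Nfkb1, Tank and Socs3 lie in the dense part of the list between 50.54 and 64.11.

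No gene of the receptor and LPS-binding group had a peak, as is the case for most coding genes, of which 2.33% had one. The nearest summits to the 5 genes lay between 0.861 Mb (Cd14, the LPS co-receptor) and 4.04 Mb (Ly96, which encodes MD-2), with Tlr2, Tlr4 and Lbp between them. The 4 adaptor genes had none either, although Tirap, the bridging adaptor of MyD88, and Ticam1, which encodes TRIF, were the closest of the 39 members without a peak. The summit nearest to Tirap lay 50.6 kb away inside Dcps (score 53.67, height 6). The summit nearest to Ticam1 lay 69.4 kb away inside Dpp9, and its score (184.09) and height (25) were above those of all 4 member peaks. Myd88, the adaptor shared by nearly all Toll-like receptors, was 668 kb from a summit and Ticam2 1502 kb.

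The IRAK, TRAF, TAK1 complex and IKK complex genes had no peak, beside the same 2.33% of coding genes with one. The 6 IRAK and TRAF genes (Irak1, Irak2, Irak3, Irak4, Traf3 and Traf6) had their nearest summits 0.716 to 4.45 Mb away, with Irak4, the kinase that starts the cascade at MyD88, the closest. The TAK1 kinase gene Map3k7 was 1.24 Mb from a summit, and the genes of its binding partners, Tab1, Tab2 and Tab3, lay 2.16, 5.77 and 8.97 Mb away. For the IKK complex the distances were 1.02 Mb (Chuk), 1.57 Mb (Ikbkb) and 2.14 Mb (Ikbkg). Irak1, Tab3 and Ikbkg are the 3 members on chromosome X, which held 5 peaks of the list, and all had the same nearest summit, in Cldn34d.

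Among the subunit genes other than Nfkb1, the nearest summits lay 1.33 Mb from Rel, 2.58 Mb from Rela, 2.71 Mb from Nfkb2 and 5.45 Mb from Relb. The IkB genes had no peak: Nfkbia, whose protein holds NF-kB in the cytoplasm and is quickly remade after LPS, was 220 kb from a summit, and Nfkbie, Nfkbiz and Nfkbib lay between 1.06 and 3.68 Mb. Of the 5 negative regulators only Socs3 had a peak. Tnip1, Cyld and Tnfaip3, which restrain NF-kB signalling by acting on ubiquitin chains, lay 218, 288 and 432 kb from a summit, and the summit nearest to Cyld was the one in Sall1. Socs1 was 1.49 Mb away. Bcl10, the partner of Malt1, was 233 kb from a summit, and the CARD genes Card9 and Card10 were 1.44 and 1.88 Mb from one. Beside Tank, the kinase genes Ikbke and Tbk1 lay 0.766 and 4.07 Mb away. Of the 39 members without a peak, 2 lay within 100 kb of a summit, 10 between 100 kb and 1 Mb and 27 beyond 1 Mb. With 2.33% of coding genes having a peak, nothing is read from its absence in a small group of genes. The absence of a peak does not show that a gene lacked the protein, since only signals past the caller's limit are in the list and the lowest listed height was 5.

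**Figure D3:**
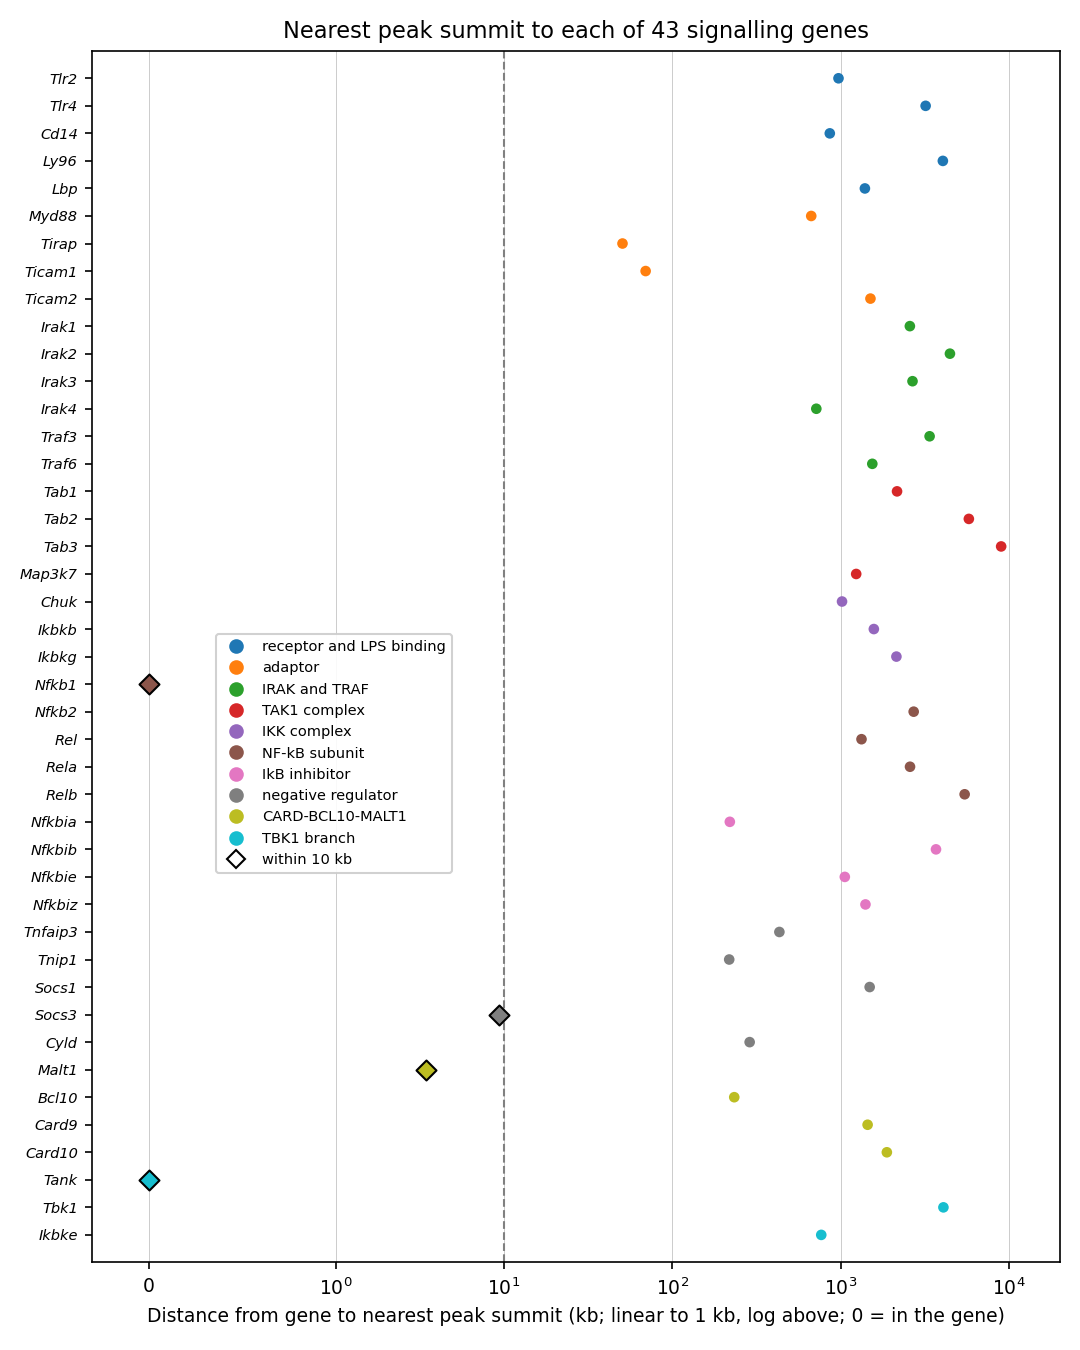
Distance from each of the 43 genes to the nearest peak summit in kb (horizontal axis, linear to 1 kb and log above), coloured by role in the pathway, with diamonds for genes within the 10 kb limit (dashed line). Only Nfkb1, Tank, Malt1 and Socs3 lie left of the line, and the interval from 10 to 50 kb holds no gene.

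The share of members with a peak, 4 of 43 or 9.30%, stood beside 2.33% of all protein-coding genes by the same rule (507 of 21779). In the gene itself the members had 2 of 43, or 4.65%, beside 1.55% of coding genes. The median distance to a summit went the other way, with 1.40 Mb for the members and 1.15 Mb for coding genes. Since 1 gene is worth 2.33 percentage points here and Malt1 and Nfkb1 were known to have peaks when the genes were listed, nothing is read from the difference. Gene length differed too: the median was 24.7 kb for the members and 17.2 kb for coding genes, and longer genes had peaks more often. Among coding genes of 60 to under 120 kb, the class of Nfkb1 and Tank, 3.62% had a peak. The share was 2.22% from 30 to under 60 kb, the class of Malt1, and 0.929% under 10 kb, the class of Socs3. It was 8.94% at 120 kb and over, a class with no member, since the longest member is 107315 bp. Between the quartiles of the members' lengths (10.1 and 49.3 kb) it was 1.73%, below the 2.33% of all coding genes. Of the 4 genes with a peak, only Malt1 has a length in that range, so the 9.30% and the 1.73% cover different lengths. Whether length has a part in the difference was not tested.

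**Figure D4:**
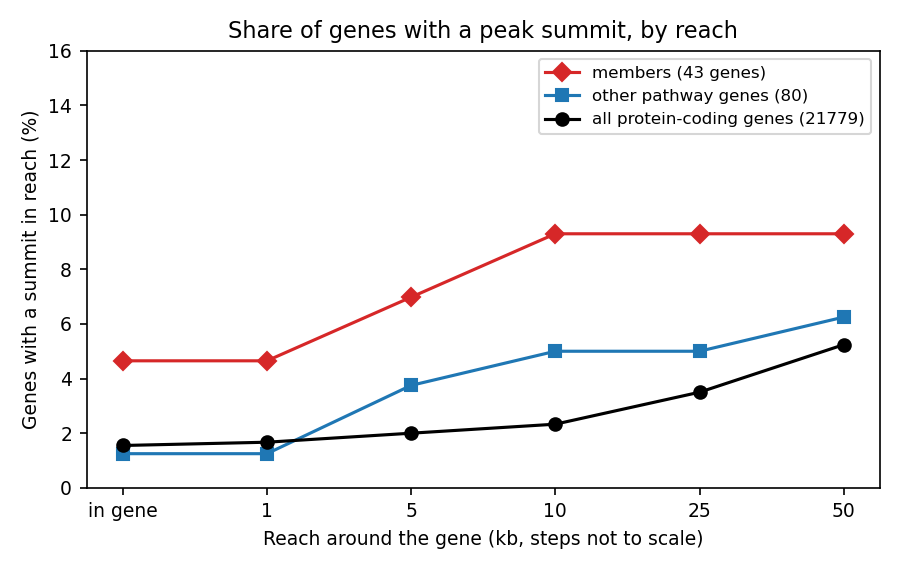
Percentage of genes with a summit in the gene or within the given reach in kb (horizontal axis, steps not to scale) for the 43 members, 80 other genes of the pathway and all 21779 protein-coding genes. The members go from 4.65% in the gene to 9.30% at 10 kb and stay there to 50 kb, while coding genes go from 1.55 to 5.24%.

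Genes that act beside these members were taken from 5 further lists with 80 genes. Of these, 4 had a peak (5%, beside the same 2.33%). The MAP kinase arm, which runs in parallel to IKK below TAK1, had 3 of 19. Map2k6, a kinase that activates p38, held its summit (score 59.34, height 8, chromosome 11 from 110424441 to 110424597). Map2k4, a kinase that activates JNK, had a summit 4559 bp before its start on the minus strand (score 52.06, height 7). Jun, a transcription factor gene of the AP-1 family, had one 6097 bp before its start (score 54.96, height 6), inside the long non-coding RNA gene Junos. Map2k6 (126421 bp) and Map2k4 (100116 bp) belong to length classes in which 8.94% and 3.62% of coding genes had a peak. Jun (3187 bp) belongs to the class with 0.929%.

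The list of TNF receptor and noncanonical inputs had 1 of 17, Sharpin, a subunit of the linear ubiquitin ligase. Its summit lay 4605 bp away (score 57.13, height 7). Nearer to that summit were Cyc1, which encodes a mitochondrial cytochrome, at 1078 bp and the pseudogene Rps6-ps1 at 4030 bp. The 10 other Toll-like receptor genes, the 10 genes of the interferon regulatory arm and the 24 NF-kB target genes, which include Tnf, Il1b, Il6 and Nos2, had none. Icam1, an adhesion molecule gene of the last list, was the only one of these 44 within 50 kb, at 48.4 kb, and is named because of that distance. The counts of this paragraph stand beside 2.33% of all coding genes and 0.929% of those under 10 kb. The NF-kB target genes had a median length of 5.86 kb, and nothing is read from the absences. All 4 peaks of these lists scored between 52.06 and 59.34, below the scores at Malt1 and Socs3 and above that at Tank (50.54). The scores at Map2k6 and Sharpin were above that at Nfkb1 (56.95), and those at Map2k4 and Jun were below it.

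Start regions were read apart from the peaks. RefSeq windows from 250 bases before to 50 after a start site were at hand for 32 of the 43 members (45 windows), and no peak overlapped any of them. Over the series, 5 of 722 peaks (0.693%) overlapped one of the 32851 windows. That is a share of peaks, and the share of all windows with a peak was not computed. Nothing is read from the absence at the members' windows. The NF-kB consensus, a motif of 10 letters searched on both strands with overlapping matches counted apart, was found in the windows of 13 of the 32 members (40.6%), beside 9.55% of the 27025 genes with a window. By window it was 19 of 45 (42.2%) beside 8.46%, and the windows of 1 gene can overlap and share a match, as at Tank, Irak1 and Nfkb2. Over the 5 other pathway lists it was 9 of 64 genes with a window (14.1%), of which the NF-kB target list had 5 of 16 (31.2%). A match is a description of letters, not evidence of a bound site.

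The 13 genes were Tlr2, Irak1, Traf3, Map3k7, Rel, Nfkb2, Nfkbia, Nfkbie, Tnfaip3, Tnip1, Cyld, Bcl10 and Tank. Of these, 3 feedback genes whose promoters are textbook NF-kB targets are printed to show the matches, cut to the bases before the start. They are Nfkbia (chr12:55492648-55492897, minus strand), Tnfaip3 (chr10:19015411-19015660, minus strand) and Nfkb2 (chr19:46304487-46304736, plus strand).
Nfkbia: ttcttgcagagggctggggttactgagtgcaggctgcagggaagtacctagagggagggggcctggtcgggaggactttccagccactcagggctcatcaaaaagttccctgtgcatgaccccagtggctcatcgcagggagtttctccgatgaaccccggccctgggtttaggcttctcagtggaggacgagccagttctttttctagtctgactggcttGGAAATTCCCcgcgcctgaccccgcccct
Tnfaip3: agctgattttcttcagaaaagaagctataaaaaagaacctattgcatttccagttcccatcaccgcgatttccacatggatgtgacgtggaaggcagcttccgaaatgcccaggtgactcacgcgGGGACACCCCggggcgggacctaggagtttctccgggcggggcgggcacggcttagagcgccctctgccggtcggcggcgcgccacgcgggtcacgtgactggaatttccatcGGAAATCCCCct
Nfkb2: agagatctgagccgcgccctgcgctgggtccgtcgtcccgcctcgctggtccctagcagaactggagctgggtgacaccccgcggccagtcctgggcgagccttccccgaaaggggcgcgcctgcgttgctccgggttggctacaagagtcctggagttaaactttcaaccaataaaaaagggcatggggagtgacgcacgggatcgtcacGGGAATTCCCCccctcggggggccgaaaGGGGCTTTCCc
The match at Nfkbia begins 29 bases before the start. Tnfaip3 has matches 125 and 12 bases before, and Nfkb2 has 3, of which those at 39 and 38 overlap. Of the genes with a peak, Tank had the consensus (127 bases before the start site printed above) and the Socs3 window did not hold these letters. Nfkb1 and Malt1 are among the members without a window, so they were read neither for the motif nor for a peak at the start. The 3 genes printed here had no peak, with summits 220 kb, 432 kb and 2.71 Mb away.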

How the data were processed

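ChIP-seq libraries were made from cortical microglia of LPS-treated mice, 2 with an AceGAPDH antibody and 2 from input. Per the submitters' processing notes, FastQC, Bowtie2 and MACS were used with mm10; the sources used here state no versions or roles, nor which libraries entered the call. The authors deposited 1 peak list with a score per peak and 1 summit list with a pileup signal per summit. Neither holds read totals, so depth is unknown.

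Peaks and summits were joined by peak name; all 722 summits lay inside their peak. Gene positions came from RefSeq on GRCm38.p6: 49603 genes on 21 chromosomes, 21779 of them protein-coding, after leaving out 340 genes placed in the first 3 Mb of any chromosome but Y. All 43 members matched by symbol. Positions are 1-based. Distances run from the summit to the nearer gene end and are 0 inside. Distances were checked on simulated summits. The members, the other pathway lists and the naming rule were chosen with earlier results of these data known. The rule named every member with a peak within 10 kb, those up to 50 kb, genes nearer to a peak, and listed pathway genes with a peak. No test was made. Alternatives varied the window, the score and height limits and the gene assignment. The software was scipy 1.17.1, pandas 2.3.3, numpy 2.4.6 and matplotlib 3.10.9 under Python 3.11.15.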

Additional observations from a re-analysis of the deposited data

How the results depend on the processing

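All alternatives were planned. The count of 4 members with a peak became 2 with the gene body alone or a 1 kb window (Nfkb1 and Tank), 2 at scores of at least 60 (Malt1 and Socs3) and 1 at scores of at least 100 (Malt1); each sets a tighter limit by construction. It was 3 with a 5 kb window or at scores at or above the median, and 4 under the other 6 alternatives. The coding shares beside these counts were 1.55% (gene body), 1.67% (1 kb), 0.868% (score 60), 0.133% (score 100), 2% (5 kb) and 1.19% (median score). With windows of 25 and 50 kb the count stayed at 4 while the coding share was 3.50 and 5.24%, and under the other 4 alternatives that share was 1.82 to 2.35%. The 4 other pathway genes became 1 with the gene body alone or a 1 kb window, 2 at or above the median score or with peaks given only to the nearest gene of any kind, and 0 at scores of at least 60 and of at least 100. Their count was 3 with a 5 kb window or with peaks given only to the nearest protein-coding gene. It was 5 with a 50 kb window, which added Icam1, and stayed at 4 under the remaining alternatives. The coding shares beside these counts are those given above. The coding share of 2.33% was 1.73% among genes between the quartiles of the members' lengths (10.1 and 49.3 kb) and 1.54% over all annotated genes. A summit inside several genes counted for each of them. No replicate could be left out, since the list holds no value per library. No paired analysis was possible because the list holds no value per library.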

Other observations

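Marker genes of brain cell types were looked up by the same rule, as values only. Of 16 microglia markers, 1 had a peak, Sall1, a transcription factor gene of microglia (score 53.41, height 6, summit inside the gene). This is the summit nearest to Cyld, 288 kb away. Of 4 astrocyte markers, Slc1a3, a glutamate transporter gene, held a summit (score 63.66, height 9). The 4 neuron, 4 oligodendrocyte and 4 border macrophage markers had none within 10 kb. These counts stand beside 2.33% of all protein-coding genes by the same rule. They say nothing about which cells were present, because a peak is not a measure of expression.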
